A study of Homo sapiens with 16 samples.

Results

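The comparison concerns where 2 repressive histone marks lie in one breast cancer cell line, MDA-MB-231, an established line that grew from a metastatic site. Chromatin was immunoprecipitated with an antibody to H3K27me3 in 2 replicates and with an antibody to H3K9me2 in 2 replicates, and each library gave one list of peaks, the stretches in which sequenced fragments piled up. These 4 lists were chosen by their labels, as the MDA-MB-231 libraries of the 2 marks, out of 16 samples in all. The study held 3 marks in 2 lines with 2 replicates each, and 4 inputs. The H3K4me3 lists of MDA-MB-231 and the repressive lists of MCF-10A, a non-tumorigenic breast epithelial line, serve below as outside readouts, and the inputs were not analysed here. All cultures were subconfluent and received no treatment that the labels name. The replicates are called biological in the labels, which do not say how the cultures were separated, so p-values measure only the spread between these samples. H3K27me3 was pulled down with a rabbit polyclonal antibody and H3K9me2 with a mouse monoclonal one, so that mark and antibody cannot be told apart in any difference given here.

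H3K27me3 is trimethylation of lysine 27 of histone H3. It is written by EZH2, the catalytic subunit of Polycomb repressive complex 2, and is known for keeping developmental genes silent, often around their CpG-rich promoters. H3K9me2 is dimethylation of lysine 9 of the same histone, written by the paired enzymes EHMT2 (G9a) and EHMT1 (GLP), and is known for broad domains of silent chromatin, many of them at the nuclear periphery. H3K4me3 marks active and poised promoters. Both repressive marks can be carried by the same nucleosome or by different cells of a culture, and peak lists cannot separate these cases.

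The lists hold no read counts, so the depth behind a peak is unknown. One library stood apart: H3K27me3 replicate 1 had 8408 autosomal peaks, against 30238 in H3K27me3 replicate 2, and only 8.46% of its peaks had an authors' score of at least 100, against 23.4% in replicate 2. Counts of regions, blocks, tiles and windows are given with and without it. Peaks off the autosomes, 1.00% to 1.97% of a list, were left out. Positions are on hg19, counted from 1. No gene or sequence is given by position, since no genome or annotation of that build was used here.

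H3K27me3 formed many narrow peaks and H3K9me2 formed fewer, wider ones. The H3K27me3 lists held 8408 and 30238 peaks and the H3K9me2 lists 6086 and 4980. The median peak was 734 and 563 bp wide in the H3K27me3 lists, against 2200.5 and 1873.5 bp for H3K9me2. The marks did not overlap in either measure, and the widths were the steadier of the 2 within a mark. Median widths averaged 648.5 ± 121 bp for H3K27me3 and 2037 ± 231.2 bp for H3K9me2 (SD, n = 2 each), a log2 ratio of -1.65. With 2 libraries against 2, the two-sided exact permutation test cannot go below p = 0.333, which is the value reached here for peak number and for width.

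The difference in width was plain among the widest peaks. Only 1 and 3 peaks reached 5 kb in the H3K27me3 lists, against 223 and 92 in the H3K9me2 lists, which is 3.66% and 1.85% of those lists. The widest H3K27me3 peaks spanned 5125 and 14679 bp, against 18570 and 19408 bp for H3K9me2. The MCF-10A lists were ordered in the same way, with medians of 629 and 622 bp for H3K27me3 and of 1606 and 1577 bp for H3K9me2. Narrow H3K27me3 peaks and wide H3K9me2 peaks were therefore found in both lines.

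**Figure D1:**
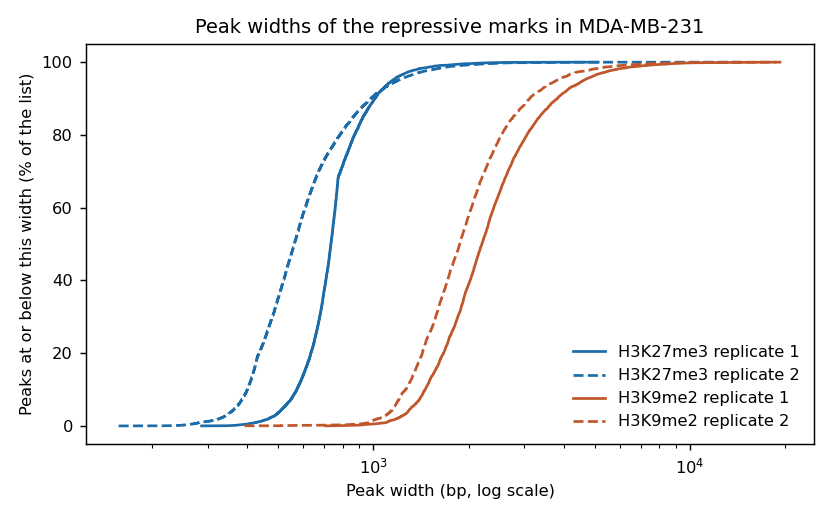
Cumulative share of peaks (%) against peak width (bp, log scale) for the 4 MDA-MB-231 lists, with replicate 1 solid and replicate 2 dashed. Both H3K27me3 curves, with medians of 734 and 563 bp, lie left of both H3K9me2 curves, with medians of 2200.5 and 1873.5 bp.

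The marks covered a similar amount of sequence, within a wide spread between replicates. H3K27me3 covered 6.50 and 19.5 Mb, or 0.226% and 0.676% of the 2880 Mb spanned by peaks on the autosomes, and H3K9me2 covered 15.1 and 10.4 Mb, or 0.525% and 0.363%. The 2 H3K27me3 libraries lie on either side of both H3K9me2 libraries. The means were 12.99 ± 9.18 Mb for H3K27me3 and 12.78 ± 3.31 Mb for H3K9me2 (SD, n = 2 each; exact permutation p = 1), and the log2 ratio of 0.02 became 0.61 without H3K27me3 replicate 1, -0.98 without H3K27me3 replicate 2 and -0.22 without H3K9me2 replicate 2. No order of the marks by covered sequence can be read from these libraries.

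A minority of H3K27me3 peaks lay on H3K9me2, while a larger share of H3K9me2 peaks lay on H3K27me3. Of the H3K27me3 peaks, 16.7% (95% interval 15.9% to 17.5%) in replicate 1 and 14.2% (13.8% to 14.6%) in replicate 2 overlapped a peak of either H3K9me2 replicate by at least 1 bp. Of the H3K9me2 peaks, 41.6% (40.4% to 42.9%) in replicate 1 and 40.1% (38.7% to 41.5%) in replicate 2 overlapped a peak of either H3K27me3 replicate. These are exact Clopper-Pearson intervals that cover counting error only. The shares were close between replicates of a mark, although the H3K27me3 lists differ so much in length. An overlap counted from the longer list and one counted from the shorter list give different shares of the same sites, and wide peaks meet more peaks than narrow ones, so the order of the 2 shares is a description of these lists. Over pairs of libraries the order turned at equal list lengths, to 15.0% for H3K27me3 and 13.2% for H3K9me2, and when 50% of the peak had to overlap, to 10.4% for H3K27me3 and 8.80% for H3K9me2.

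Counted library against library, the share depended on which H3K27me3 list was used. Averaged over the 4 pairs, 11.1% ± 2.17 of H3K27me3 peaks overlapped H3K9me2 and 26.9% ± 12.8 of H3K9me2 peaks overlapped H3K27me3 (SD over 4 pairs, which share libraries). The H3K9me2 lists overlapped the short H3K27me3 replicate 1 at 16.6% and 15.2% of their peaks, and the long replicate 2 at 38.6% and 37.4%. Within marks, 48.2% of the peaks of H3K27me3 replicate 1 met replicate 2, but 14.7% of those of replicate 2 met replicate 1. For H3K9me2, 50.9% of the peaks of replicate 1 met replicate 2 and 63.4% of those of replicate 2 met replicate 1. The peaks of H3K27me3 replicate 2 thus met H3K9me2 replicate 1, at 11.7%, nearly as often as they met the short list of their own mark. By shared bases over joint bases, the Jaccard index was 0.0961 between the H3K27me3 replicates and 0.354 between the H3K9me2 replicates, against 0.0422 to 0.0806 for the 4 pairs across marks.

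Peaks that did not overlap the other mark were in part close to it. Of the H3K27me3 peaks without overlap, 31.2% and 30.6% lay within 10 kb of H3K9me2, and of the H3K9me2 peaks without overlap 41.0% and 39.4% lay within 10 kb of H3K27me3. The H3K27me3 peaks without overlap were a median of 25.4 and 26.5 kb from the nearest H3K9me2 peak, and the H3K9me2 peaks without overlap 17.1 and 19.03 kb from the nearest H3K27me3 peak. Most of these peaks, 74.4% and 74.9% for H3K27me3 and 75% and 73.1% for H3K9me2, had the other mark within 100 kb.

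Overlap was most frequent among the strongest and widest peaks. When each list was cut into 5 parts by the authors' score, the share that overlapped at the top came to 23.8% and 23.1% in the H3K27me3 lists and 55.8% and 49.2% in the H3K9me2 lists. At the bottom, 15.3% and 9.16% of H3K27me3 peaks and 33.3% and 33.2% of H3K9me2 peaks overlapped. Score and width move together in such lists, and the widest of 5 parts by width showed 25.0% and 24.0% for H3K27me3 and 57.4% and 51.8% for H3K9me2, close to the shares by score. The rise by score was stepwise in 3 of the lists, whereas in H3K27me3 replicate 1 the second from the bottom was lowest, at 11.8%.

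Where the marks met, the H3K27me3 peak usually sat inside the H3K9me2 peak. This held for 77.7% and 68.1% of the overlapping peaks of H3K27me3 replicate 1, against H3K9me2 replicates 1 and 2 in turn, and for 81.7% and 73.2% of those of H3K27me3 replicate 2. The edges rarely matched: the starts lay within 100 bp of each other in 8.46% to 11.5% of the overlaps across marks, against 22.99% between the H3K27me3 replicates and 41.1% between the H3K9me2 replicates. The overlapping H3K27me3 peaks were 760 and 650 bp wide at the median, against 731 and 553 bp for those without overlap, and the overlapping H3K9me2 peaks 2381 and 2009 bp, against 2090 and 1788 bp.

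The overlap of the marks was higher in MDA-MB-231 than in MCF-10A in every library. The share of H3K27me3 peaks on H3K9me2 was 16.7% and 14.2% in MDA-MB-231, against 6.12% and 6.07% in MCF-10A. The share of H3K9me2 peaks on H3K27me3 was 41.6% and 40.1% in MDA-MB-231, against 16.7% and 15.8% in MCF-10A. Mean shares were 15.5% ± 1.76 in MDA-MB-231 and 6.09% ± 0.0365 in MCF-10A for H3K27me3 peaks, and 40.9% ± 1.09 in MDA-MB-231 and 16.2% ± 0.626 in MCF-10A for H3K9me2 peaks (SD, n = 2 each; exact permutation p = 0.333 for both, the smallest this design allows). Library against library, with the short H3K27me3 replicate 1 the H3K9me2 shares were 16.6% and 15.2% in MDA-MB-231, against 11.2% to 11.8% in MCF-10A over its 4 pairs. List lengths differed too: MCF-10A had 28393 and 28371 H3K27me3 peaks and 10418 and 8701 H3K9me2 peaks. The H3K9me2 peaks of MCF-10A were also narrower, and the part of width in the difference was not tested.

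**Figure D2:**
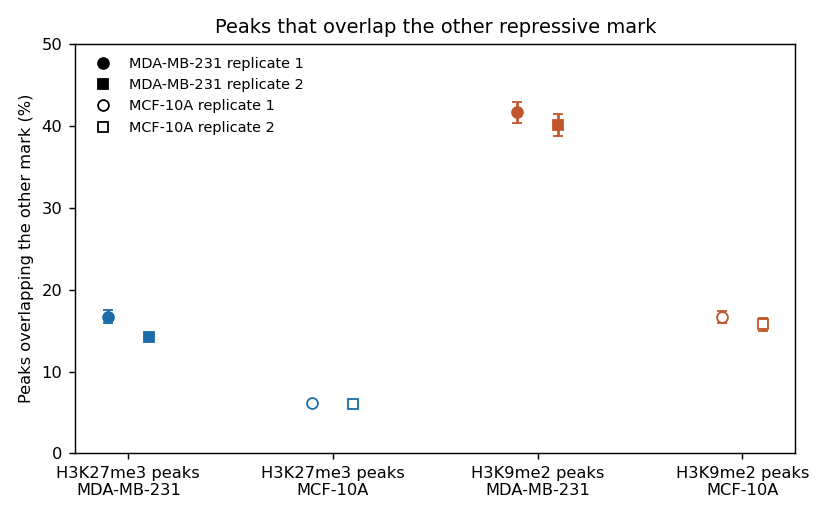
Share of the peaks of each list (%) that overlap a peak of the other repressive mark in either replicate, for MDA-MB-231 (filled) and MCF-10A (open), with exact 95% intervals that cover counting error only. The MDA-MB-231 lists reach 16.7% and 14.2% for H3K27me3 and 41.6% and 40.1% for H3K9me2, above the MCF-10A lists of the same mark.

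To find sites that did not depend on a single library, the 4 lists were merged into 37226 regions. Both marks in both replicates were present in 520 regions, which is 13.2% of the 3933 regions with H3K27me3 in both replicates and 17.2% of the 3029 regions with H3K9me2 in both. H3K27me3 in both replicates with no H3K9me2 peak was found in 2941 regions, and H3K9me2 in both replicates with no H3K27me3 peak in 1645. A further 26461 regions, 71.1% of all, had a peak in a single H3K27me3 library and none of H3K9me2. In MCF-10A the regions with both marks in both replicates numbered 491, or 4.31% of 11386 regions with H3K27me3 and 8.22% of 5972 with H3K9me2. The number of doubly marked regions rested on single libraries: without H3K27me3 replicate 1 there were 1311, and without H3K9me2 replicate 2 there were 828. Regions with H3K27me3 alone numbered 25936 without H3K27me3 replicate 1 and 7003 without replicate 2, and those with H3K9me2 alone 2983 without H3K9me2 replicate 1 and 3552 without replicate 2.

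The 3 classes of regions differed in width and in how the marks filled them. Regions with both marks had a median width of 3461 bp, those with H3K27me3 alone 1060 bp and those with H3K9me2 alone 2333 bp. Inside the 520 doubly marked regions, H3K27me3 covered a median of 27.3% and 47.3% of the bases and H3K9me2 96.5% and 79.4%. H3K27me3 was also the more broken mark there, with 1.28 and 2.05 peaks per region on average, against 1.07 and 1.12 for H3K9me2. In H3K27me3 replicate 2, 147 of the regions, or 28.3%, held 3 or more separate peaks.

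Few regions of any class met the promoter mark. Of the 520 regions with both marks, 0.192% overlapped a peak of H3K4me3 replicate 1 and 0.577% one of replicate 2. The shares were 2.62% and 2.92% for H3K27me3 alone and 1.03% and 0.973% for H3K9me2 alone, against 0.787% and 0.889% of all merged regions. H3K27me3 without H3K9me2 was thus the class that met H3K4me3 most often, at 63 regions with a peak of both H3K4me3 replicates, against 14 for H3K9me2 alone and 1 for both marks. These lists were not used to form the classes.

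Where MDA-MB-231 had both marks, the same positions in MCF-10A carried H3K27me3 more often than H3K9me2, an order also seen over all merged regions. Among the 520 regions, 50.4% and 45.4% overlapped H3K27me3 peaks of the MCF-10A replicates, and 29.4% and 24.0% overlapped their H3K9me2 peaks. All 4 MCF-10A lists had a peak in 51 of them (9.81%), and none had one in 154 (29.6%). Regions with H3K27me3 alone overlapped MCF-10A H3K27me3 at 39.9% and 37.3% and MCF-10A H3K9me2 at 1.33% and 1.26%. Regions with H3K9me2 alone overlapped MCF-10A H3K27me3 at 12.8% and 11.8% and MCF-10A H3K9me2 at 47.9% and 43.5%. Each singly marked class therefore overlapped its own mark in MCF-10A more often than the other. In all merged regions the shares were 21.1% and 20.9% for H3K27me3 and 7.94% and 6.68% for H3K9me2. Both marks of MCF-10A were thus more frequent in the 520 regions than in all merged regions. The latter are narrower, at a median of 673 bp against 3461 bp, and wider regions meet more peaks. The H3K27me3 lists of MCF-10A are also longer than its H3K9me2 lists.

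The strongest doubly marked regions, by the lowest rank of their score in any of the 4 lists, were spread over several chromosomes. The first, chr19:8851342-8856555, was covered at 88.9% and 95.3% by H3K27me3 and at 96.2% and 92.7% by H3K9me2, and had no peak in MCF-10A. The second, chr7:100637660-100648931, was covered at 76.4% and 83.2% by H3K27me3 and at 98.5% and 96.4% by H3K9me2. It carried both marks in MCF-10A too, at 75.5% and 79.6% for H3K27me3 and 88.6% and 88.1% for H3K9me2. The third, chr9:140776984-140786238, was covered at 67.0% and 79.3% by H3K27me3 and at 99.5% and 95.9% by H3K9me2, while in MCF-10A it had H3K27me3 at 69.1% and 53.8% but H3K9me2 at 14.2% and 0%. The other two, chr1:2583015-2588812 and chr8:86743966-86755880, had both marks in every library of both lines. In MCF-10A, these 5 regions thus had both marks, H3K27me3 with little H3K9me2, or no peak.

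Among regions with H3K27me3 alone, chr5:132946808-132949204 led, covered at 75.7% and 97.1% by H3K27me3 and at 97.7% and 100% by H3K27me3 of MCF-10A. The next, chr8:144751084-144752203, was likewise marked by H3K27me3 in MCF-10A, at 86.4% and 80.5%. The regions chr14:104582522-104585122, covered at 59.9% and 100%, and chr1:201366874-201369215, covered at 56.6% and 99.1%, had no peak of either mark in MCF-10A. The fifth, chr20:47233848-47237124, was covered at 80.3% and 85.2%, against 18.98% and 11.3% in MCF-10A. None of these 5 regions had a H3K4me3 peak in MDA-MB-231 or a H3K9me2 peak in either line. Such peaks were rare in the whole class. Only 2.62% and 2.92% of its regions met the H3K4me3 lists, and 1.33% and 1.26% the H3K9me2 lists of MCF-10A.

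The leading regions with H3K9me2 alone were marked by H3K9me2 in MCF-10A as well. Cover in MDA-MB-231 was 89.5% and 99.8% at chr17:163563-167617, against 85.0% and 85.8% in MCF-10A. At chr14:105695480-105698890 it was 98.3% and 84.5%, against 92.1% and 91.8% in MCF-10A. The other three, chr11:1016216-1019211, chr2:87654158-87658638 and chr5:257102-262659, were covered at 96.1% to 100% by H3K9me2 in MDA-MB-231, against 85.4% to 99.7% in MCF-10A. A H3K27me3 peak was found in MCF-10A only at the chromosome 2 region, at 25.0% and 16.8% cover.

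Dense stretches held by both marks were few and short. In 10 kb tiles of the autosomes, a mean cover of at least 50% over the replicates was reached by H3K27me3 in 33 tiles and by H3K9me2 in 228 of 287994 tiles. Both reached it in 9 tiles, 27.3% of those of H3K27me3 and 3.95% of those of H3K9me2. The 9 tiles form 8 blocks that total 90 kb. In MCF-10A the order of the marks was the other way round, with 230 dense tiles for H3K27me3, 90 for H3K9me2 and 10 for both. This order rested on the short H3K27me3 replicate 1: without it, slightly more tiles were dense for H3K27me3 than the 228 for H3K9me2, and the blocks numbered 22. Without H3K27me3 replicate 2, 8 tiles were dense for H3K27me3 and there were 2 blocks, and without H3K9me2 replicate 2, 447 were dense for H3K9me2.

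The 8 blocks lay on chromosomes 5, 6, 7, 9, 11, 19 and 20. The longest, chr19:8850001-8870000, was covered at 68.4% and 86.8% by H3K27me3 and at 25.1% and 88.8% by H3K9me2, so the H3K9me2 replicates differed there. The block chr5:17520001-17530000 was covered at 47.3% and 88.8% by H3K27me3 and at 100% in both H3K9me2 libraries. The block chr7:100640001-100650000 was covered at 69.2% and 72.4% by H3K27me3 and at 87.7% and 85.3% by H3K9me2. It was the single block that was also dense for both marks in MCF-10A, at 64.9% and 74.0% for H3K27me3 and 76.5% and 75.9% for H3K9me2. On chromosome 6, the block chr6:41120001-41130000 was covered at 44.3% and 81.8% by H3K27me3 and at 85.0% and 72.7% by H3K9me2, and the block chr6:41310001-41320000 at 39.3% and 63.7% by H3K27me3 and at 69.9% and 36.8% by H3K9me2.

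The remaining blocks, chr20:56150001-56160000, chr9:140780001-140790000 and chr11:119360001-119370000, were covered at 42.1% to 73.6% by H3K27me3 and at 47.9% to 68.5% by H3K9me2. H3K4me3 covered none of the 8 blocks in either replicate. It covered only 0.728% and 0.730% of the bases of all 10 kb tiles, so its absence from so few blocks tells little. In MCF-10A, 3 of the 8 blocks, the later one on chromosome 6 and those on chromosomes 20 and 9, held H3K27me3 at 36.4% to 54.7% in both replicates with H3K9me2 at 13.1% or less. The chromosome 5 block had H3K9me2 at 91.6% in MCF-10A replicate 2 and no peak in replicate 1. These values did not choose the blocks.

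**Figure D3:**
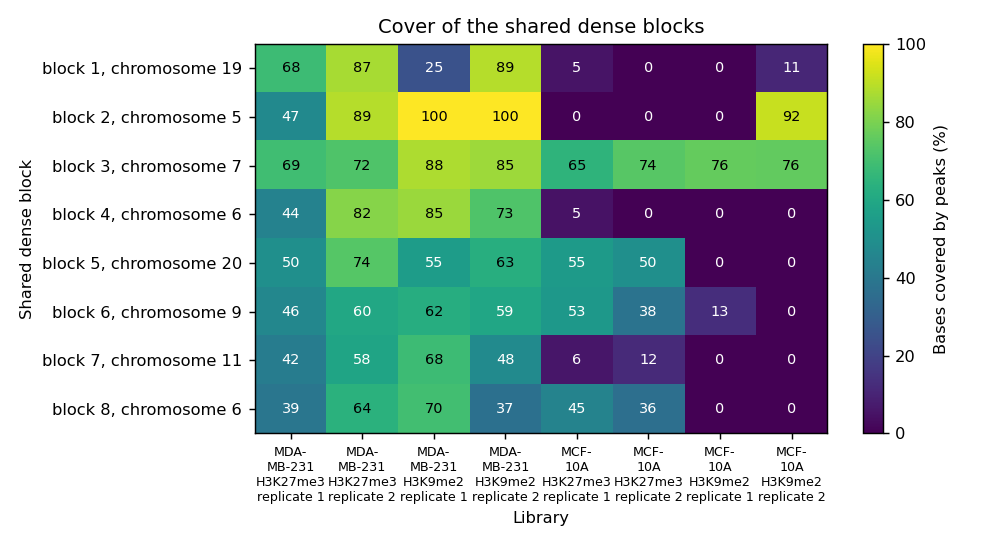
Bases covered by peaks (%) in the 8 blocks dense for both marks in MDA-MB-231, for the 4 MDA-MB-231 lists that chose them and the 4 MCF-10A lists that did not. Block 3, on chromosome 7, is dense in all 8 lists, whereas 4 blocks have no H3K9me2 peak in MCF-10A.

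At a lower bound of 25% mean cover, 662 tiles were dense for H3K27me3, 1382 for H3K9me2 and 174 for both, in 143 blocks. The 174 tiles were 26.3% of those dense for H3K27me3 and 12.6% of those dense for H3K9me2. In MCF-10A 76 tiles were dense for both marks, 4.95% of 1535 tiles dense for H3K27me3 and 7.04% of 1080 dense for H3K9me2. The longest blocks at this bound, 50 kb each, were chr19:8850001-8900000 and chr20:57350001-57400000. The first was covered at 57.9% and 86.2% by H3K27me3 and at 23.8% and 86.9% by H3K9me2, and the second at 34.6% and 65.1% by H3K27me3 and at 45.8% and 37.4% by H3K9me2. H3K4me3 covered 0% of the 174 tiles in both replicates, against 0.728% and 0.730% of all tiles. Tiles dense for a single mark were low as well. H3K4me3 covered 0.316% and 0.381% of those dense for H3K27me3 only and 0.315% and 0.344% of those dense for H3K9me2 only. Chromosome 20 held 52 of the 174 tiles, chromosome 11 held 24, chromosome 6 held 23 and chromosome 7 held 17, together 66.7%. Single libraries moved the tile counts: without H3K27me3 replicate 1 there were 348 tiles dense for both marks and without replicate 2 there were 60, above and below the 76 of MCF-10A.

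Chromosome 20 stood out for both marks alike. It holds 2.19% of the autosomal span but took 12.9% and 11.98% of the cover of H3K27me3 and 13.0% and 12.1% of that of H3K9me2, ratios to its span of 5.92 and 5.48 for H3K27me3 and 5.96 and 5.55 for H3K9me2. It also held 107 of the 520 doubly marked regions, or 20.6%. The H3K4me3 lists of the same cells had ratios of 1.28 and 1.28 there, and MCF-10A had 2.05 and 2.06 for H3K27me3 and 0.86 and 0.79 for H3K9me2. Peaks of both repressive marks were thus concentrated on this chromosome in MDA-MB-231 to a degree that the promoter mark did not share. Copy number was not measured in these lists, and its part in the concentration was not tested. Chromosomes 11, 17 and 19 came next. Chromosome 11 had ratios of 2.30 and 2.52 for H3K27me3 and 2.36 and 2.16 for H3K9me2 and held 70 doubly marked regions, and chromosome 17 had 2.36 and 2.43 for H3K27me3 and 2.03 and 2.07 for H3K9me2.

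Other chromosomes leaned to one mark. The share of cover was higher in both H3K27me3 libraries than in both H3K9me2 libraries on 11 of 22 chromosomes (50.0%) and lower on 6 (27.3%), namely 4, 6, 7, 8, 9 and 14. It overlapped on chromosomes 2, 5, 10, 11 and 20. Chromosome 22 was poorest in H3K9me2 relative to H3K27me3, with 1.02% and 0.997% of H3K27me3 cover, against 0.264% and 0.311% of H3K9me2 cover, a log2 ratio of 1.81. Chromosome 16 followed, at a log2 ratio of 1.51, and chromosome 13 at 1.02, where both marks were scarce. On the side of H3K9me2, chromosome 4 had the most negative log2 ratio, -0.67. No test is given for single chromosomes, since 2 libraries against 2 cannot reach a p below 0.333.

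**Figure D4:**
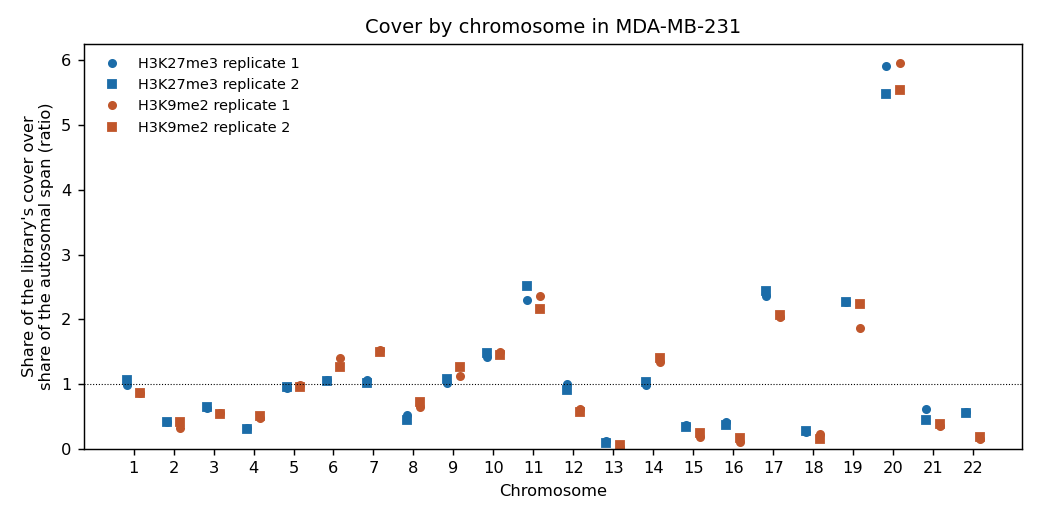
Share of each MDA-MB-231 library's cover on a chromosome divided by the chromosome's share of the autosomal span, with the dotted line at 1, for both replicates of both marks. All 4 libraries lie between 5.48 and 5.96 on chromosome 20, and the marks part most on chromosome 22 by the log2 ratio of their shares, 1.81.

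Within chromosomes, H3K9me2 lay closer to the longest peak-free stretch, which on most chromosomes spans the centromere and its gap in the assembly. On chromosomes 2 and 4 the longest stretch lies elsewhere, so the measure misses the centromere there. On chromosome 21 the stretch runs from position 1 to 9483376, and whether it reaches the centromere was not checked. Of the covered bases, 5.53% and 6.004% of H3K27me3 and 9.05% and 9.64% of H3K9me2 lay within 5 Mb of the longest stretch (exact permutation p = 0.333, the smallest possible). These 5 Mb flanks make up 7.27% of the span outside the stretches, so that H3K27me3 lay below that share and H3K9me2 above it. In MCF-10A the shares were 5.49% and 5.43% for H3K27me3 and 7.59% and 7.42% for H3K9me2. The last 2 Mb of the chromosomes, at the end with the highest coordinates, held 4.42% and 3.55% of H3K27me3 cover and 5.01% and 5.88% of H3K9me2 cover. Of all 10 kb tiles of the autosomes, 1.54% lay there.

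At the scale of 1 Mb, the marks shared many of their richest windows. Windows were compared as covered bases per Mb of a library's autosomal cover (bp/Mb), which scales out the total cover of a list but not its number of peaks: at equal list lengths the 284 windows called higher for H3K27me3 below became 132. The Spearman correlation over 2894 windows was 0.87 between the H3K27me3 replicates, 0.83 between the H3K9me2 replicates and 0.62 to 0.67 across the marks, against 0.51 to 0.53 across the marks in MCF-10A. The windows share mappability and gene density and are not independent, and these values are a description. H3K4me3 correlated with H3K27me3 at 0.48 to 0.54 and with H3K9me2 at 0.38 to 0.39. Of the 145 windows richest in each mark (the top 5%), 83 were the same, or 57.2% of each list, against 62 (42.8%) in MCF-10A.

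These richest windows held 49.6% of the cover of H3K27me3 and 51.6% of that of H3K9me2, while 1330 windows (46.0%) had no H3K27me3 peak and 1447 (50%) no H3K9me2 peak. The window chr6:41000001-42000000 was high in all 4 libraries, at 8173 and 7674 bp/Mb of H3K27me3 and 8502 and 8265 bp/Mb of H3K9me2. At chr20:46000001-47000000 the values were 10962 and 9186 bp/Mb of H3K27me3 and 9493 and 7569 bp/Mb of H3K9me2. At chr11:117000001-118000000 they were 9792 and 11643 bp/Mb of H3K27me3 and 8775 and 7037 bp/Mb of H3K9me2. In the chromosome 20 window MCF-10A had 1985 and 2088 bp/Mb of H3K27me3 but 69.3 and 0 bp/Mb of H3K9me2. Chromosome 20 held 17 of the 83 shared windows, chromosome 11 held 12 and chromosome 17 held 8.

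Against this shared pattern, many windows were held by one mark more than the other. Of 1506 windows covered in at least 2 of the 4 libraries, 284 were higher for H3K27me3 (18.9% of those tested) and 247 were higher for H3K9me2 (16.4%) by limma on log2(bp/Mb + 10) with a Benjamini-Hochberg adjusted p under 0.05. The median log2 ratio of all windows tested was 0.05. H3K9me2 was listed at 0 in both libraries in 188 of the 284, and H3K27me3 in 128 of the 247. Such windows passed the filter on cover only through the mark that is high there, so their p-values and their number are no separate support for a difference. Where the other mark was present, the median log2 ratio was 2.01 in 96 windows higher for H3K27me3 and -2.46 in 119 windows higher for H3K9me2, on a scale that understates low windows. On covered bases without scaling the calls were 116 higher for H3K27me3 and 154 higher for H3K9me2, so that H3K27me3 took 43.0% of the calls, against 53.5% with scaling. The calls also rested on single libraries: without H3K27me3 replicates 1 and 2 in turn, 67 and 28 windows were higher for H3K27me3 and 161 and 126 for H3K9me2. Without H3K9me2 replicates 1 and 2 in turn, 316 and 293 were higher for H3K27me3 and 158 and 134 for H3K9me2.

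Asking for at least 500 bp/Mb in both libraries of the higher mark left 106 windows rich in H3K27me3 (7.04%) and 107 rich in H3K9me2 (7.1%). Only 16 and 12 of these had no peak of the other mark, so that most rich windows held some of both. Without H3K27me3 replicate 1 there were 67 rich windows for H3K27me3 and 105 for H3K9me2, and without H3K27me3 replicate 2 there were 28 for H3K27me3 and 80 for H3K9me2. With 1 library of a mark left, that library is assumed to vary like the other mark, and windows that hold that mark alone are no longer tested. Without an H3K9me2 replicate there were 181 and 168 rich windows for H3K27me3, and for H3K9me2 154 and 133.

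The called windows differed in the mark of promoters and in place. Windows higher for H3K27me3 had median H3K4me3 levels of 489 and 481 bp/Mb and those higher for H3K9me2 of 235 and 229 bp/Mb, against 383 and 382 bp/Mb in all windows tested. In the rich windows the medians were 596 and 583 bp/Mb for H3K27me3 and 388 and 379 bp/Mb for H3K9me2. Windows rich in H3K9me2 were thus close to all windows tested in H3K4me3. Windows within 5 Mb of the longest peak-free stretch were 23 of those higher for H3K27me3 (8.10%) and 45 of those higher for H3K9me2 (18.2%), against 9.63% of all tested. Among the rich windows they were 8 (7.55%) for H3K27me3 and 26 (24.3%) for H3K9me2. By chromosome, windows higher for H3K27me3 made up 53.5% of the tested windows of chromosome 16, 51.1% of chromosome 15 and 48% of chromosome 22, but 2.13% of chromosome 7. Windows higher for H3K9me2 were most frequent on chromosome 4, at 35.9%. These shares did not carry over to the rich windows. Rich windows for H3K27me3 were 4.65% of those tested on chromosome 16, 4.44% on 15 and 12% on 22, against 7.04% of all tested. Rich windows for H3K9me2 were 6.25% of those tested on chromosome 4, against 7.1% of all tested.

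**Figure D5:**
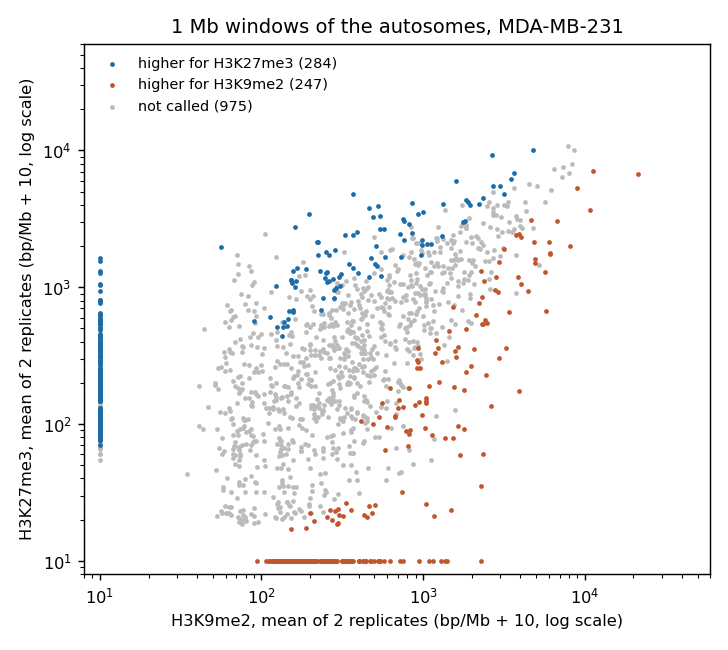
Mean H3K27me3 level against mean H3K9me2 level (both bp/Mb + 10, log axes) in the 1506 tested 1 Mb windows, with the 284 called higher for H3K27me3 and the 247 called higher for H3K9me2 in colour. Windows on the left or bottom edge have one mark listed at 0, as in 188 and 128 of the called windows.

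Of the 10 rich windows with the smallest p for H3K27me3, 9 had H3K9me2 listed at 0. The first was chr2:26000001-27000000, with 1436 and 1637 bp/Mb of H3K27me3 and 0 in both H3K9me2 libraries. At chr17:4000001-5000000 H3K27me3 reached 1797 and 1431 bp/Mb, at chr17:47000001-48000000 it reached 1358 and 1143 bp/Mb, and at chr15:66000001-67000000 it reached 1114 and 945 bp/Mb. Each of these windows held H3K27me3 in both libraries and H3K9me2 in neither (limma adjusted p = 0.0107 for each of the 20 windows named here, of which 15 have the other mark at 0 and so passed the filter only through the higher mark). The exception was chr12:111000001-112000000, with 2470 and 3036 bp/Mb of H3K27me3 against 149 and 155 bp/Mb of H3K9me2, a log2 ratio of 4.09 (SE 0.289). Unscaled, its log2 ratio was 3.46 and the call was lost at an adjusted p of 0.0591, the highest over its alternatives (lowest 6.95e-16, in a fit with a single H3K9me2 library). It was also higher for H3K27me3 in MCF-10A, which had 1116 and 510 bp/Mb of H3K27me3 and 94.5 and 114 bp/Mb of H3K9me2.

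In 3 further windows MCF-10A held both marks. At chr7:99000001-100000000 H3K27me3 was at 747 and 807 bp/Mb with H3K9me2 listed at 0, whereas MCF-10A had 539 and 686 bp/Mb of H3K27me3 and 844 and 745 bp/Mb of H3K9me2. At chr3:126000001-127000000 H3K27me3 was at 751 and 831 bp/Mb, and MCF-10A had 679 and 874 bp/Mb of H3K27me3 and 618 and 372 bp/Mb of H3K9me2. At chr2:218000001-219000000 it was at 1027 and 1059 bp/Mb, and MCF-10A had 1918 and 1836 bp/Mb of H3K27me3 with 747 and 696 bp/Mb of H3K9me2. MCF-10A was itself called higher for H3K27me3 at this chromosome 2 window (log2 ratio 1.37, limma adjusted p = 0.0029). These 3 windows had H3K27me3 in both lines and H3K9me2 in MCF-10A alone, as did the windows on chromosomes 1, 8 and 15. In limma's interaction of mark and line, their adjusted p was 0.000137, 0.000651 and 0.000137 in the order given. The MDA-MB-231 libraries that chose these windows enter that test, with H3K9me2 at 0, so it is no separate support. The other two, chr1:18000001-19000000 and chr8:11000001-12000000, had 1359 and 1257 bp/Mb and 750 and 843 bp/Mb of H3K27me3 with H3K9me2 listed at 0. The chromosome 1 window and the one from 218000001 on chromosome 2 had no H3K4me3 peak.

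The windows named for H3K9me2 were of 2 kinds. In 4 of the 10 the window held both marks. At chr6:40000001-41000000 the levels were 6635 and 6835 bp/Mb of H3K27me3 against 23129 and 19617 bp/Mb of H3K9me2, a log2 ratio of -1.66 (SE 0.106). At chr20:58000001-59000000 they were 3660 and 3665 bp/Mb of H3K27me3 against 10843 and 10559 bp/Mb of H3K9me2, a log2 ratio of -1.54 (SE 0.0840). These 2 windows were rich in both marks, and H3K9me2 exceeded H3K27me3 in them. At chr20:39000001-40000000 the levels were 988 and 882 bp/Mb of H3K27me3 against 4433 and 4418 bp/Mb of H3K9me2, and at chr4:49000001-50000000 they were 190 and 138 bp/Mb of H3K27me3 against 4242 and 3603 bp/Mb of H3K9me2. In MCF-10A the chromosome 6 window had 613 and 872 bp/Mb of H3K27me3 and 468 and 372 bp/Mb of H3K9me2, far below its levels in MDA-MB-231. On unscaled cover 3 of these calls were lost although the log2 ratios were as large: -1.81 (adjusted p = 0.244) on chromosome 6, and -1.68 (adjusted p = 0.262) and -2.29 (adjusted p = 0.123) on chromosome 20 from 58000001 and 39000001. At a score of at least 100 the calls were lost on chromosome 20 from 58000001 and 39000001 (adjusted p = 0.0678 and 0.0732) and on chromosome 4 (adjusted p = 0.105). The lowest adjusted p over the alternatives of these 4 windows was between 7.60e-22 and 3.31e-07, in fits with a single H3K9me2 library, whose spread rests on the H3K27me3 replicates alone.

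In the other 6 H3K27me3 was listed at 0. Of these, 5 lie within 5 Mb of the longest peak-free stretch of their chromosome. For the chromosome 4 window named above, this measure says nothing about the centromere, which it misses on that chromosome. The highest was chr14:19000001-20000000, with 2503 and 2063 bp/Mb of H3K9me2, and MCF-10A had 79.9 and 28.2 bp/Mb of H3K27me3 and 2363 and 2626 bp/Mb of H3K9me2 there. The others were chr1:142000001-143000000, chr7:56000001-57000000, chr9:68000001-69000000 and chr21:10000001-11000000, with H3K9me2 at 901 to 1451 bp/Mb. Sequence beside such stretches is repetitive in places, and the handling of reads that match several places is not given in the sources used. The one window away from such a stretch was chr19:37000001-38000000, with 1318 and 1457 bp/Mb of H3K9me2, H3K27me3 listed at 0, and both marks listed at 0 in MCF-10A. It held H3K4me3 at 1238 and 1233 bp/Mb, above the median of all windows tested.

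The split of windows between the marks was in part the same in MCF-10A, where the same test called 466 of 2420 windows higher for H3K27me3 (19.3%) and 862 higher for H3K9me2 (35.6%). Of the 282 windows higher for H3K27me3 in MDA-MB-231 that were tested in MCF-10A, 135 (47.9%) were higher for H3K27me3 there and 26 (9.22%) higher for H3K9me2. Of the 234 higher for H3K9me2 in MDA-MB-231, 124 (53.0%) were higher for H3K9me2 in MCF-10A and 17 (7.26%) higher for H3K27me3. Over all 1457 windows tested in both lines the shares were 25.2% higher for H3K27me3 and 26.8% higher for H3K9me2. Of the rich windows, 69 of 106 (65.1%) for H3K27me3 and 45 of 100 (45%) for H3K9me2 had the same call in MCF-10A, and 4 and 11 had the opposite call.

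The difference between the lines was tested over all 8 libraries as an interaction of mark and line. Of 2484 windows, 536 (21.6%) shifted towards H3K27me3 in MDA-MB-231 and 246 (9.9%) towards H3K9me2 by limma with an adjusted p under 0.05. The total of 782 became 451 without MCF-10A H3K9me2 replicate 1 and 412 without replicate 2. Of the 1506 windows tested in MDA-MB-231, 204 (13.5%) shifted towards H3K27me3 and 185 (12.3%) towards H3K9me2. The other windows of the 2484 had cover in fewer than 2 of the 4 MDA-MB-231 libraries. The larger number of shifts towards H3K27me3 thus lay mostly in windows with little or no cover in MDA-MB-231. Among the 284 windows higher for H3K27me3 in MDA-MB-231, 147 shifted towards H3K27me3 and 13 towards H3K9me2. Among the 247 windows higher for H3K9me2, 98 shifted towards H3K9me2 and 5 towards H3K27me3. The windows were called on 4 of the same libraries, so the direction of these shifts is not independent of the calls.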

How the data were processed

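ChIP-seq peak lists of 4 MDA-MB-231 libraries were compared, with 4 MCF-10A lists and 2 H3K4me3 lists of MDA-MB-231 as further readouts. A deposited list gives the position, name and score of each peak. The score was set by the authors on a scale that no source used here states, and it served only to rank and filter peaks within a list. Lists are per replicate, whereas the labels' protocols state that replicates were normalised and pooled for later steps. Per the submitters' processing notes, the build was hg19 and the tools were MACS 1.4, Bowtie2, CASAVA 1.6 and bedtools, without roles or settings. The control for peak calling is not given in the sources used. The lists hold no counts, so depth is unknown and precision rests on 2 libraries per group.

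Only chromosomes 1 to 22 were used. Overlap needed 1 bp. Covered bases in 1 Mb windows were scaled per Mb of a library's cover, and their log2, after adding 10 bp/Mb as a pseudocount, went into limma 3.58.1 (trend, empirical Bayes; R 4.3.3), with Benjamini-Hochberg adjustment at 0.05. Dense tiles are 10 kb with at least 50% mean cover. Python 3.11.15, NumPy 2.4.6, SciPy 1.17.1, pandas 2.3.3 and matplotlib 3.10.9 did the rest. Single values per library were compared by two-sided exact permutation. Named windows are the 10 per direction with the smallest p among called windows with at least 500 bp/Mb in both libraries of the higher mark, named blocks up to 10 of the longest, and named regions the 5 per class with the highest lowest score percentile. Members and lists were chosen with earlier results of these data known. In simulated data on 1506 windows with 200 changed, the window test recovered 23.1% of 4-fold, 53.6% of 16-fold and 72.7% of 32-fold differences, and 3.85% of its 104 calls were false. Whether these rates hold for windows with the other mark listed at 0 was not tested. The other mark was at 0 in 188 of the 284 windows called higher for H3K27me3 and in 128 of the 247 for H3K9me2. Alternatives were other pseudocounts, filters, scalings, window and tile sizes, and a score of at least 100. Further ones were equal list lengths, the replicate number as a block, and each library left out. Lists of genes could not be run without an annotation of hg19.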

Additional observations from a re-analysis of the deposited data

Results flagged for a closer look

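Of the 20 windows named above, 14 had a difference between H3K27me3 and H3K9me2 that itself differed between MDA-MB-231 and MCF-10A, by limma's interaction of mark and line with Benjamini-Hochberg adjustment over 2484 windows. Of all 2484, 536 (21.6%) shifted towards H3K27me3 in MDA-MB-231 and 246 (9.9%) towards H3K9me2. Of the 1506 tested in MDA-MB-231, these numbers were 204 (13.5%) and 185 (12.3%). All 14 were named for their contrast in MDA-MB-231, which enters this test. The direction of the shift is therefore partly set by the choice, and its p is no separate support. The window chr19:37000001-38000000 was covered only in both MDA-MB-231 H3K9me2 libraries, and passed the filter on cover only through them.

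A shift towards H3K27me3 in MDA-MB-231 was found in 6 of them. Its adjusted p was 0.00143 at chr1:18000001-19000000, 0.000137 at chr2:218000001-219000000, 0.00178 at chr15:66000001-67000000, 0.000651 at chr3:126000001-127000000, 0.000531 at chr8:11000001-12000000 and 0.000137 at chr7:99000001-100000000. All 6 had H3K9me2 listed at 0 in MDA-MB-231 and present in both MCF-10A replicates. In MCF-10A the windows on chromosomes 1, 2, 15 and 8 were also higher for H3K27me3, at log2 ratios of 2.26, 1.37, 2.25 and 2.38 (limma adjusted p = 0.014, 0.0029, 0.012 and 0.0025). Those on chromosomes 3 and 7 were not called in MCF-10A. The H3K27me3 level was not always higher in MDA-MB-231: at the chromosome 8 window MDA-MB-231 had 750 and 843 bp/Mb of it, against 6195 and 6119 bp/Mb for MCF-10A, where H3K9me2 was at 1373 and 1011 bp/Mb.

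A shift towards H3K9me2 in MDA-MB-231 was found in 8. Its adjusted p was 0.000296 at chr20:58000001-59000000, 0.0398 at chr14:19000001-20000000, 0.00219 at chr6:40000001-41000000, 0.000103 at chr19:37000001-38000000, 0.00455 at chr4:49000001-50000000, 0.00168 at chr7:56000001-57000000, 0.00311 at chr9:68000001-69000000 and 0.00835 at chr20:39000001-40000000. The chromosome 20 window from 58000001 was higher for H3K9me2 in MDA-MB-231 and higher for H3K27me3 in MCF-10A. In MCF-10A it had 1252 and 1488 bp/Mb of H3K27me3 and 386 and 510 bp/Mb of H3K9me2. The windows on chromosomes 14 and 4 were higher for H3K9me2 in MCF-10A as well, at log2 ratios of -5.41 and -1.42 (limma adjusted p = 0.0037 and 0.0303). At the chromosome 14 window H3K9me2 was similar in both lines, at 2503 and 2063 bp/Mb in MDA-MB-231 and 2363 and 2626 bp/Mb in MCF-10A, and the lines differed by 79.9 and 28.2 bp/Mb of H3K27me3 in MCF-10A, against none in MDA-MB-231.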

How the results depend on the processing

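The narrower peaks of H3K27me3 kept their direction in every alternative run, with a log2 ratio of median widths of -1.86 to -1.47 when one library was left out, and so did peak number, at 0.60 to 2.45. Covered bases did not: the log2 ratio was -1.30 at equal list lengths and -0.98 to 0.61 with one library left out, negative without H3K27me3 replicate 2 (-0.98) and without H3K9me2 replicate 2 (-0.22). Windows higher for H3K27me3 numbered 116 unscaled, 725 at 250 kb, 102 at a score of at least 100, 132 at equal list lengths and 28 to 316 with one library left out. Those higher for H3K9me2 numbered 154 unscaled, 512 at 250 kb, 49 at that score and 126 to 161. Rich windows ranged over 28 to 181 for H3K27me3 and 80 to 154 for H3K9me2 with one library left out, and the score bound left 44 for H3K9me2; these alternatives for rich windows were chosen after seeing the data. The interaction gave 2491 windows at 250 kb and 412 to 833 with one library left out. Regions with both marks, H3K27me3 alone and H3K9me2 alone numbered 3093, 29402 and 4731 when either replicate sufficed, and 30, 324 and 259 at the score bound. Equal list lengths gave 239 with both marks and 816 with H3K27me3 alone, and a cover of at least 50% left 50 with both. With one library left out they ranged over 589 to 1311, 3106 to 25936 and 1721 to 3552. The overlapping share of H3K27me3 peaks was 6.82% at the score bound and 15.0% at equal list lengths, and that of H3K9me2 peaks 8.80% when 50% of the peak had to overlap and 13.2% at equal list lengths. Shared dense blocks numbered 143 at 25%, 2 when each library had to reach 50%, 38 in 5 kb tiles, 1 in 20 kb tiles, 3 at the score bound and 2 to 22 with one library left out. At equal list lengths and at 50% of the peak the order of the 2 shares was turned. The causes were not tested. Of 219 settings of the 20 named windows, 212 left the call in place and 0 turned its direction. The other 7 ended it (4 unscaled, 3 at the score bound, in the 5 windows that held both marks). Settings in which a window failed the filter on cover are not among the 219. Only 11 of the 20 windows were tested at the score bound and 18 at equal list lengths. Without each H3K27me3 replicate in turn 11 were tested, and without each H3K9me2 replicate 14. In the 15 windows with the other mark at 0 the direction could not turn.

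The replicates share only a number: deviations of same-numbered libraries correlated at -0.01 over 1506 windows, and with the replicate block the calls were 317 for H3K27me3, 266 for H3K9me2 and 685 for the interaction. Depth is unknown, so a missing peak cannot be told apart from too few reads, above all in H3K27me3 replicate 1.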
